A study of Mus musculus with 26 samples.

Results

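Bone marrow macrophages that lack Cox2 and had received RANKL for 1 day were compared with wild-type (WT) macrophages kept in M-CSF alone for the same day. The 7 arrays were chosen by their labels, 3 from Cox2 KO cells with M-CSF and RANKL and 4 from WT cells with M-CSF alone, out of 26 in the series. A further 3 arrays of WT cells with M-CSF and RANKL entered the same fit, so that each level in KO cells with RANKL could be set beside both WT states. All donors were CD1 mice labelled male, 2 months old, and their femur and tibia marrow was expanded in M-CSF at 100 ng/ml before the experiment. Both groups with RANKL then received RANKL and M-CSF at 30 ng/ml each, whereas no dose is given in these sources for the M-CSF that the WT cells without RANKL received. The labels hold no KO arrays with M-CSF alone, so the comparison changes genotype and RANKL together and their parts cannot be told apart. The replicates are called biological, but nothing says that each came from a separate mouse, so p-values measure the spread between these samples. Cox2 itself (Ptgs2) has no probe with a name here, and the knockout was not checked on these arrays.

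RANKL, a cytokine of the TNF family, binds its receptor RANK on macrophages and starts osteoclast formation through NF-kappaB, AP-1 and the transcription factor NFATc1. M-CSF acts through the receptor CSF1R and keeps macrophages and osteoclast precursors alive and dividing. Cox2 makes the prostaglandin precursor PGH2, and PGE2 formed from it signals through cAMP in macrophages and in bone-forming cells.

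Before the gene results, the label of male donors was set against sex-linked genes. Xist, the RNA that silences an X chromosome in female cells, had intensities of 208, 227 and 228 in KO with RANKL, 227, 217 and 194 in WT with RANKL, and 677, 615, 620 and 588 in WT with M-CSF. Both groups with RANKL were at background, and all 4 WT M-CSF arrays were above it. The log2 change from WT M-CSF was -1.50 ± 0.09 (SE; limma adjusted p = 9.12e-11), at least 2.83-fold lower in KO with RANKL. The Y-linked demethylase Kdm5d had 477, 499 and 453 in KO with RANKL, 513, 428 and 414 in WT with RANKL, and 170, 165, 199 and 203 in WT with M-CSF, where it was not above background (at least 2.39-fold higher in KO with RANKL). The Y-linked helicase Ddx3y was nonetheless present in every group, at 3662, 3288 and 5083 in KO with RANKL, 2801, 3644 and 3672 in WT with RANKL, and 2638, 2256, 2556 and 2343 in WT with M-CSF. The 4 arrays labelled WT M-CSF thus went against the label in Xist and Kdm5d, though not in Ddx3y. Since all 4 did, no result could be run without them. Probes that the authors' deposited tables place on the X were called lower in 52 of 177 (29.4%) and higher in 23 (13%), beside 775 (16.3%) lower and 700 (14.7%) higher of 4765 that they place on an autosome. Among changes of 1 or more on the log2 scale, 3 rises and 9 falls were placed on the X, and 81 rises and 85 falls on an autosome. A further 2286 named probes, those of Kdm5d and some X-linked genes among them, have no chromosome there and are in neither count. The part of a different cell source in the results below was not tested.

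At an adjusted p under 0.05, KO with RANKL exceeded WT with M-CSF at 1246 of 17211 probes (7.24%) and was below it at 1458 (8.47%). Every adjusted p given here is limma's, with Benjamini-Hochberg adjustment over all 17211 probes, and log2 values are differences of mean log2 intensity, positive where KO with RANKL was higher. A log2 change of 1 or more in size was reached by 129 probes higher (0.75%) and 134 lower (0.779%). All 263 of these carried a gene name, and 402 of the called probes had none. The median change over all probes was 0.01. In the same fit KO with RANKL differed from WT with RANKL at 3257 probes higher (18.9%) and 2561 lower (14.9%), and WT with RANKL from WT with M-CSF at 2928 higher (17%) and 3559 lower (20.7%). These comparisons share arrays with the one described here, so their values are given side by side. Intensities ran from 116 to 71707, and the lowest signals above background lay between 181 and 208 across the groups compared. Arrays of one group correlated at 0.993 to 0.995 over all probes, and arrays of KO with RANKL with those of WT M-CSF at 0.985 to 0.987.

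**Figure D1:**
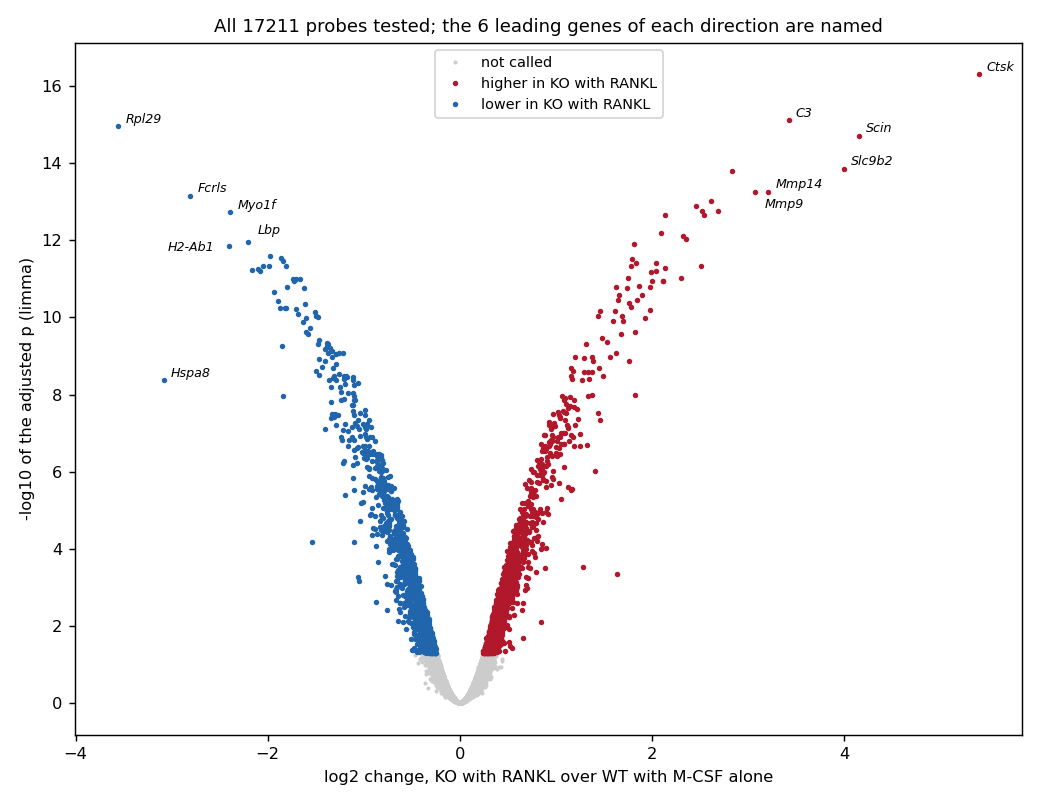
The log2 change of each of 17211 probes in KO with RANKL over WT with M-CSF (x axis) is plotted against -log10 of its adjusted p (y axis), with called probes in red where higher and in blue where lower. Ctsk lies farthest to the right at 5.41, and 1 of the Rpl29 probes lies farthest to the left at -3.56.

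The osteoclast proteases stood at the head of the rises. Ctsk, cathepsin K, which cuts bone collagen, had intensities of 32367, 20969 and 31951 in KO with RANKL, 43642, 44781 and 41979 in WT with RANKL, and 645, 660, 702 and 621 in WT with M-CSF. Every KO array lay far above every M-CSF array and below every WT RANKL array. Its log2 change of 5.41 ± 0.12 was the largest rise in the table, a 42.5-fold difference (adjusted p = 4.97e-17), and against WT with RANKL it was -0.64 ± 0.13 (adjusted p = 4.61e-04). Mmp9, a gelatinase of migrating osteoclasts, had 54381, 40421 and 54671 in KO with RANKL, 61779, 62012 and 59421 in WT with RANKL, and 6709, 5565, 5893 and 5325 in WT with M-CSF. Its rise of 3.08 ± 0.11 was 8.43-fold, with levels in both RANKL groups near the top of the scale, and the groups did not overlap.

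The membrane-bound collagenase Mmp14 had 8943, 6467 and 9337 in KO with RANKL, 33822, 31313 and 32794 in WT with RANKL, and 893, 948, 923 and 765 in WT with M-CSF. It was thus above M-CSF by 3.21 ± 0.11 on the log2 scale (9.26-fold, adjusted p = 5.66e-14) and 4.01-fold below WT with RANKL (adjusted p = 3.78e-11). Acp5, the tartrate-resistant phosphatase used to stain osteoclasts, had 1332, 929 and 1668 in KO with RANKL, 1987, 2399 and 2872 in WT with RANKL, and 540, 475, 508 and 403 in WT with M-CSF. The 3 groups did not overlap, and its change over M-CSF was 1.41 ± 0.16 (adjusted p = 9.43e-07). In all, 7 of 12 genes for proteases and matrix breakdown that had a name (14 were listed) rose and 2 fell, with a median change of 1.17. Over all 5780 named genes, each by its brightest probe, 15.3% rose and 15.9% fell, with a median of 0.02. These shares are higher than those over all probes because a probe has a name here where the authors listed it as differing in one of their comparisons. The other rises were the protease inhibitors Timp3 (1.75) and Timp1 (1.18) and the gelatinase Mmp2, at least 2.19-fold higher. The lysosomal cathepsins Ctsd (-0.69) and Ctsl (-0.33) fell.

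The promoter of Ctsk is shown because this gene led the comparison. In RefSeq (GRCm38.p6) the window from 250 bases before to 50 after its start, on the plus strand, is chr3:95498960-95499259, and capitals mark the core recognised by PU.1, a transcription factor of macrophages and osteoclasts (GAGGAA or its reverse complement).
Ctsk: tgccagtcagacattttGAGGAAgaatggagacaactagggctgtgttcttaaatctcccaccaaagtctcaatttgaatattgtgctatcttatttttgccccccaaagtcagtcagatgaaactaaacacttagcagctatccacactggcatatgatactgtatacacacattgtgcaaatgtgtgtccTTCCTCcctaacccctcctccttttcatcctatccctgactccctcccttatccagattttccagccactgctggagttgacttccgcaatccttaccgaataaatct
The core occurred once on each strand. It was in 10 of 24 promoters of genes on the osteoclast lists that rose (41.7%), beside 31.3% of 27025 genes in the promoter table. The AP-1 letters TGANTCA were in 2 of the 24 (8.33%), beside 8.97% of all, and the core of a cAMP response element, TGACGT, in 6 (25%), beside 8.37%. The E-box CACGTG, read by MITF and its relatives, was in 3 (12.5%), beside 8.09%. Both strands were searched, and 32 genes of these lists had risen, of which 24 had an entry. The 32 include 5 from the list of brakes on osteoclast formation, described further on. A match describes letters in this window and is neither a site nor a cause.

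Transcription factors and signalling proteins of osteoclasts divided, with 8 of 23 named members (of 31 listed) higher, 5 lower and a median of 0.12. Without the KO array of replicate 20 or of replicate 21, 3 were lower. Jdp2, an AP-1 family factor needed for osteoclast formation, had 3656, 3178 and 3779 in KO with RANKL, 5748, 5174 and 4965 in WT with RANKL, and 808, 712, 674 and 639 in WT with M-CSF. KO arrays lay between the WT groups with no overlap, and the rise over M-CSF was 2.32 ± 0.10 (5.00-fold, adjusted p = 7.60e-13). Src, the kinase that organises the ruffled border, had 3753, 3521 and 3658 in KO with RANKL, 4587, 4496 and 4128 in WT with RANKL, and 1070, 1221, 1062 and 1271 in WT with M-CSF. Its rise was 1.66 ± 0.09 (adjusted p = 2.55e-11), and its difference from WT with RANKL was small, -0.27 (adjusted p = 0.0343). Oscar, a receptor that costimulates osteoclast formation, was at least 3.07-fold higher than in M-CSF, where its probe was not above background.

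Nfatc1 gave different answers by probe. One probe, described after its values were seen, had 2081, 1818 and 2645 in KO with RANKL, 2236, 2511 and 2360 in WT with RANKL, and 966, 735, 684 and 831 in WT with M-CSF, a rise of 1.43 ± 0.12 (adjusted p = 3.02e-08). The brighter probe had 2588, 2549 and 2429 in KO with RANKL, 2798, 2607 and 2325 in WT with RANKL, and 2277, 2232, 2254 and 2049 in WT with M-CSF, a change of 0.20 (adjusted p = 0.159). The remaining probe of Nfatc1 changed by 0.23 (adjusted p = 0.0862). The AP-1 factor Fos rose by 0.75, and the alternative NF-kappaB subunits Nfkb2 and Relb rose by 0.62 and 0.61. Falls were seen for the adaptor Blnk (-0.62), the receptor Trem2 (-0.41), the RANKL receptor Tnfrsf11a (-0.39, adjusted p = 0.0146) and the M-CSF receptor Csf1r (-0.36). The call of Tnfrsf11a was lost without KO replicate 20 (adjusted p = 0.0853) or 21 (adjusted p = 0.118), and that of Csf1r without any one of 5 arrays, with adjusted p up to 0.14. Mitf, a factor that drives osteoclast genes, changed by 0.22 over M-CSF (adjusted p = 0.132), and its level was higher than in WT with RANKL by 0.92.

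Of the genes for acid secretion and ion transport, 10 of 18 (of 25 listed) rose and 2 fell, with a median of 0.31, and 1 fell without the KO array of replicate 21. Slc9b2, a sodium and proton antiporter of osteoclasts, had 2717, 1961 and 3051 in KO with RANKL, 3314, 3954 and 3687 in WT with RANKL, and 138, 187, 152 and 161 in WT with M-CSF, where it was not above background. It was at least 12.9-fold higher than in M-CSF, and the KO arrays lay below all 3 WT RANKL arrays (-0.52, adjusted p = 0.0051). Car2, the carbonic anhydrase that supplies protons for acid secretion, had 436, 480 and 475 in KO with RANKL, 2259, 1780 and 1989 in WT with RANKL, and 283, 310, 267 and 303 in WT with M-CSF. Its rise over M-CSF was 0.68 ± 0.10 (adjusted p = 2.46e-05), and its distance from WT with RANKL was -2.11 ± 0.10. Smaller rises were found for the endosomal sorting nexin Snx10 (0.60), the chloride and bicarbonate exchanger Slc4a2 (0.58), the chloride transporter Clcn7 (0.50) and the proton pump subunit Tcirg1 (0.54 at its brightest probe, with 2 of its 4 probes not passing). The lysosome positioning protein Plekhm1 (-0.34) and the pump subunit Atp6v0a1 (-0.32) fell. The accessory pump subunit Atp6ap2 had 1 probe that rose and 3 that fell, from 0.29 to -1.07, and the rise was lost when most single arrays were left out. Without KO replicate 21 the adjusted p of Atp6v0a1 was 0.0514.

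Of the fusion and adhesion genes, 2 of 13 (of 17 listed) were higher (15.4%) and 2 lower (15.4%), with a median of -0.15. These shares are near those over all named genes, of which 15.3% rose and 15.9% fell. Dcstamp, a membrane protein needed for precursor fusion, had 1749, 1520 and 1884 in KO with RANKL, 1955, 2202 and 2059 in WT with RANKL, and 846, 568, 664 and 846 in WT with M-CSF. It rose over M-CSF by 1.25 ± 0.12 (2.37-fold, adjusted p = 2.10e-07), and its difference of -0.27 from WT with RANKL did not pass (adjusted p = 0.12). Spp1, osteopontin, a secreted ligand of osteoclast integrins, had 24714, 28059 and 27018 in KO with RANKL, 14320, 15516 and 14918 in WT with RANKL, and 61779, 61253, 61253 and 62012 in WT with M-CSF. Its fall of -1.21 ± 0.08 (2.32-fold, adjusted p = 8.39e-10) left KO with RANKL between the WT groups, and the M-CSF arrays were near the top of the scale. Pstpip1, a cytoskeletal adaptor, rose by 0.70, and the tetraspanin Cd9 fell by 0.49 on the log2 scale.

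Brakes on osteoclast formation also went both ways, with 5 of 17 (of 21 listed) higher, 2 lower and a median of 0.08. Id1, an inhibitor of basic helix-loop-helix factors, had 1968, 1705 and 1927 in KO with RANKL, 2054, 1612 and 1954 in WT with RANKL, and 4015, 4667, 4457 and 4501 in WT with M-CSF. Both RANKL groups were below every M-CSF array and overlapped each other, and the fall in KO with RANKL was -1.24 ± 0.10 (adjusted p = 8.42e-09). The related Id2 fell by 0.83 on the log2 scale, while the NF-kappaB inhibitor Nfkbia rose by 1.00 and the repressor Zeb1 by 0.74. Socs3, which restrains JAK and STAT signals, had 585, 701 and 540 in KO with RANKL, 14864, 17175 and 15806 in WT with RANKL, and 499, 421, 297 and 577 in WT with M-CSF. Its arrays overlapped with M-CSF despite a called change of 0.47 (adjusted p = 0.0433), a call lost under 9 alternatives with adjusted p up to 0.206, and it was lower than in WT with RANKL by a log2 change of -4.72.

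Against the osteoclast markers chosen to check the cells, Ctsk, Mmp9, Acp5 and Dcstamp rose, Nfatc1 depended on the probe, and Ocstamp and Calcr changed by 0.26 (adjusted p = 0.0632, and 0.0329 without M-CSF replicate 3) and 0.05 (adjusted p = 0.823). Of 26 macrophage genes, 1 was not above background in KO with RANKL, 4 in WT with RANKL and 0 in WT with M-CSF, and 1 has no detection value. Cd68, a lysosomal glycoprotein of macrophages, had 55084, 55084 and 51441 in KO with RANKL, 25634, 23667 and 24059 in WT with RANKL, and 56058, 59421, 59199 and 52146 in WT with M-CSF. In this gene KO with RANKL overlapped with M-CSF and lay above WT with RANKL. The markers Cd14 (-0.47), Csf1r (-1.32) and Itgam (-0.58) were instead lower than in WT with RANKL. The brightest probe of Adgre1 did not differ from WT with RANKL (0.07, adjusted p = 0.671). Another of its probes was lower (-1.13, adjusted p = 1.33e-07), and the remaining one did not pass (0.18, adjusted p = 0.319). Of the 26 macrophage genes, 14 were higher than in WT with RANKL and 7 lower, where 40.6% and 29% of named genes were.

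**Figure D2:**
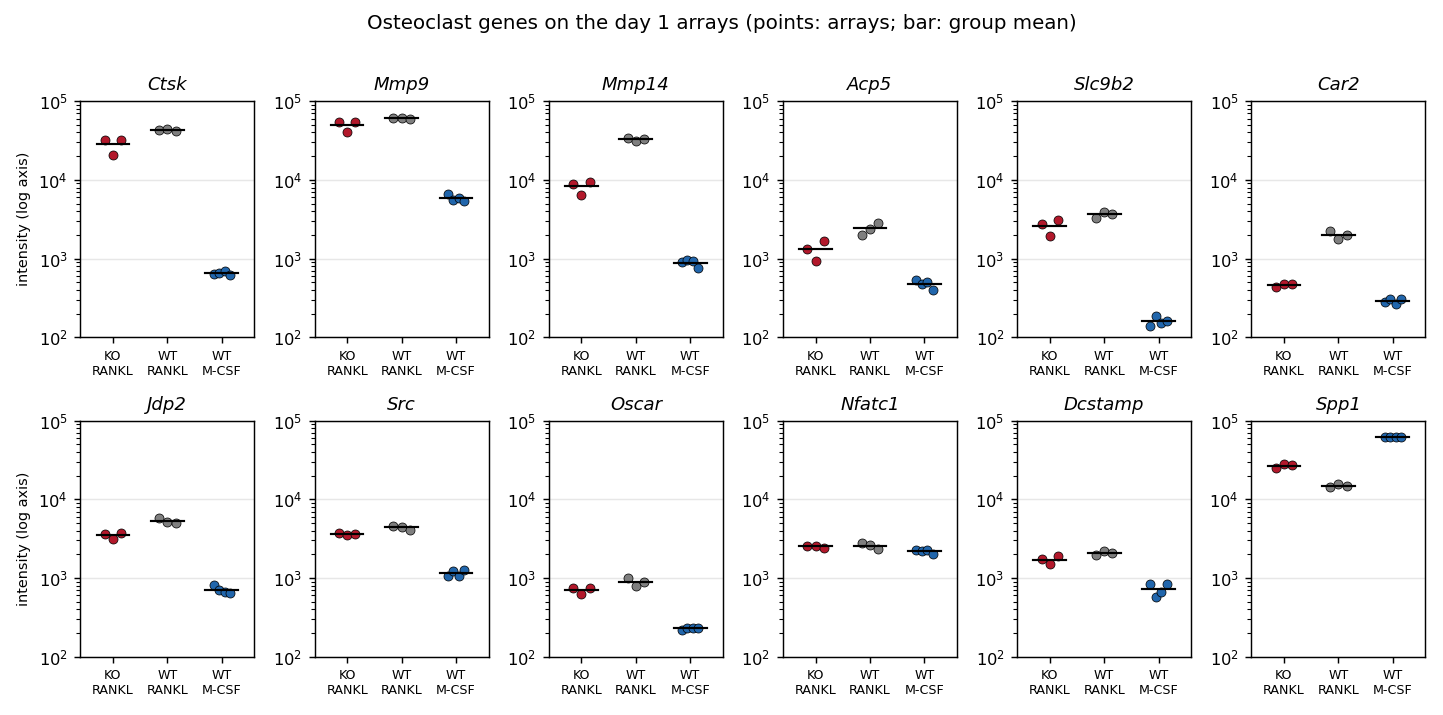
Intensity on a log axis is plotted for 12 osteoclast genes in the 3 KO RANKL arrays, the 3 WT RANKL arrays and the 4 WT M-CSF arrays, with each point an array and each bar a group mean. Ctsk, Mmp9 and Slc9b2 in KO with RANKL lie near WT with RANKL, Mmp14 lies between the WT groups, and Car2 lies near M-CSF, as the values in the text give.

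The clearest group of falls was the cell cycle. Of 29 named genes (of 62 listed) of mitosis and chromosome segregation, 26 fell and 0 rose, with a median change of -0.99, and in 27 every KO array was below every M-CSF array. Prc1, which bundles spindle microtubules, had 896, 888 and 867 in KO with RANKL, 770, 1035 and 819 in WT with RANKL, and 3984, 3576, 3482 and 3593 in WT with M-CSF. The fall of -2.05 ± 0.10 was 4.14-fold (adjusted p = 4.76e-12), and KO and WT cells with RANKL overlapped (difference 0.03, adjusted p = 0.887). Ccnb1, cyclin B1, which drives entry into mitosis, had 402, 427 and 381 in KO with RANKL, 402, 418 and 384 in WT with RANKL, and 1422, 1199, 1312 and 1414 in WT with M-CSF. Its fall was -1.73 ± 0.09 (3.31-fold, adjusted p = 1.11e-11), and the 2 groups with RANKL had nearly equal values (0.01 ± 0.09, adjusted p = 0.979).

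All 3 probes of Birc5, survivin, which acts in chromosome segregation, fell by log2 changes of -1.85 to -2.10. The probe with the largest change had 294, 348 and 372 in KO with RANKL, 386, 326 and 360 in WT with RANKL, and 1275, 1405, 1520 and 1584 in WT with M-CSF. Pbk, a mitotic kinase, had 320, 305 and 247 in KO with RANKL, 223, 196 and 251 in WT with RANKL, and 1141, 1022, 1115 and 1159 in WT with M-CSF (-1.94, adjusted p = 2.25e-11). Both genes were low in all RANKL arrays and separate from M-CSF. The scaffold protein of the cleavage furrow Anln fell by 1.61 on the log2 scale, as did the spindle protein Nusap1 (-1.61), the tubulin-binding protein Stmn1 (-1.49), the mitotic kinase Plk1 (-1.38) and the cyclin-dependent kinase Cdk1 (-1.35). Cenpa, the histone of centromeres, fell less (-0.71) and was 1.37 higher than in WT with RANKL on the log2 scale. Incenp (-0.25), Plk4 (-0.20) and Ccnf (0.08) did not pass, though Incenp did without KO replicate 19 (adjusted p = 0.031). Against WT with RANKL, 11 of the 29 were called higher and 0 lower, where 40.6% of named genes were called higher and 29% lower. Between WT with RANKL and WT with M-CSF, 27 of the 29 fell and 1 rose, where 42% of named genes fell and 33.7% rose.

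DNA replication genes fell less steeply. Of 32 named members (of 49 listed) 24 fell and 0 rose, with a median of -0.47, and 6 of the falls were of 1 or more. Tk1, thymidine kinase, which salvages a nucleotide for DNA synthesis, had 497, 507 and 458 in KO with RANKL, 393, 369 and 369 in WT with RANKL, and 1910, 1523, 1552 and 1831 in WT with M-CSF (-1.80 ± 0.10, adjusted p = 1.62e-11). KO arrays were all far below M-CSF and slightly above all WT RANKL arrays. Mcm5, part of the replicative helicase, had 1024, 1017 and 948 in KO with RANKL, 839, 915 and 924 in WT with RANKL, and 2839, 2374, 2364 and 2465 in WT with M-CSF (-1.33 ± 0.09, adjusted p = 7.23e-10). Uhrf1, which carries DNA methylation through replication, fell by 1.71 on the log2 scale. The topoisomerase Top2a (-1.47), the thymidylate synthase Tyms (-1.34), the helicase loader Mcm10 (-1.11) and the sliding clamp Pcna (-0.97) also fell. Against WT with RANKL, 13 of the 32 were higher and 0 lower, with a median of 0.17. Over all named genes 40.6% were higher and 29% lower in that comparison, with a median of 0.13.

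Among genes of cell cycle entry and inhibitors, 8 of 22 (of 32 listed) fell and 3 rose. Ccnd1, cyclin D1, which couples growth factors to the cycle, had 9808, 9042 and 9839 in KO with RANKL, 2393, 1929 and 1851 in WT with RANKL, and 16679, 21224, 19942 and 19582 in WT with M-CSF. Its fall was -1.01 ± 0.10 (adjusted p = 3.35e-07), and it lay above every WT RANKL array (2.22 higher on the log2 scale). Cdkn1c, the kinase inhibitor p57, had 5767, 5336 and 5064 in KO with RANKL, 375, 361 and 432 in WT with RANKL, and 3199, 2695, 2971 and 2640 in WT with M-CSF. Here KO with RANKL was the highest of the 3 groups, by 0.91 over M-CSF and 3.79 over WT with RANKL. The antiproliferative gene Btg1 (0.76) and the cyclin Ccnd3 (0.33) rose, though 1 further probe of each did not pass, while the activators of cell cycle genes Mybl2, at least 1.70-fold lower, Foxm1 (-0.43) and E2f2 (-0.40) fell.

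**Figure D3:**
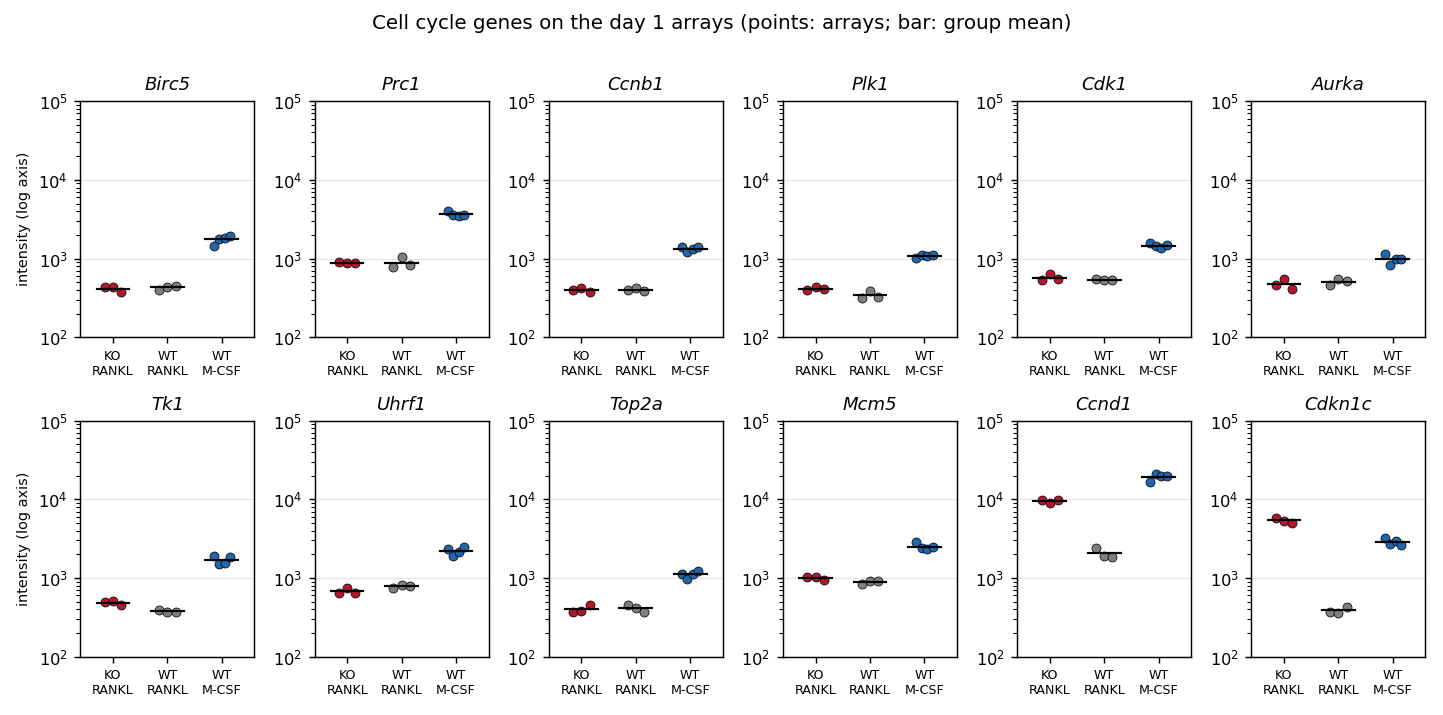
Intensity on a log axis is plotted for 12 cell cycle genes in KO with RANKL (3 arrays), WT with RANKL (3 arrays) and WT with M-CSF (4 arrays), with each point an array and each bar a group mean. In the mitosis and replication genes both groups with RANKL lie below every M-CSF array, whereas Ccnd1 and Cdkn1c lie well above WT with RANKL in KO cells.

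Promoters of 5 of the falling genes are shown because they hold matches to cell cycle motifs, and were chosen for that. Capitals mark the CCAAT box bound by NF-Y, the CHR element TTTGAA bound by complexes that control late cell cycle genes, and the E2F letters TTNGCGC, each on either strand. The windows, from RefSeq (GRCm38.p6), are chr7:80294201-80294500 on the plus strand for Prc1 (the first of its start sites), chr7:122159185-122159484 on the plus strand for Plk1, chr11:99024140-99024439 on the minus strand for Top2a, chr13:100786437-100786736 on the minus strand for Ccnb1, and chr17:56304063-56304362 on the plus strand for the second start site of Uhrf1.
Prc1: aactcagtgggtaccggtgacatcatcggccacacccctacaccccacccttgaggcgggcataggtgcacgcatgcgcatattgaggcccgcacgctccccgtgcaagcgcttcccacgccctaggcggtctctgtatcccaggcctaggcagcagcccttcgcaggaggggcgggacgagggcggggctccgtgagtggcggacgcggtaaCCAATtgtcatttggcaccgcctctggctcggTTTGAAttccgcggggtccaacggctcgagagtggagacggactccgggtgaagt
Plk1: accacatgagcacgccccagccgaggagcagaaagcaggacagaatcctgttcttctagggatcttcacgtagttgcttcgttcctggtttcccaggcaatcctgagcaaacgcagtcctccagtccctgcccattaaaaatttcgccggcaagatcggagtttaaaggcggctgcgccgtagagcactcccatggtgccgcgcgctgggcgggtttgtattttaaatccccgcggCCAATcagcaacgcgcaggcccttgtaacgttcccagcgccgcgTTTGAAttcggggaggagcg
Top2a: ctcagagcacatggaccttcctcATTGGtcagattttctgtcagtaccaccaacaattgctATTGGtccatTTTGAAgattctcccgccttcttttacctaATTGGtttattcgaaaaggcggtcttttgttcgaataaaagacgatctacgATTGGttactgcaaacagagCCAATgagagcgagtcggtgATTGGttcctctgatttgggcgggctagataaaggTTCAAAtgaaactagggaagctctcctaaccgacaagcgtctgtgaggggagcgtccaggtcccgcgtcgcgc
Ccnb1: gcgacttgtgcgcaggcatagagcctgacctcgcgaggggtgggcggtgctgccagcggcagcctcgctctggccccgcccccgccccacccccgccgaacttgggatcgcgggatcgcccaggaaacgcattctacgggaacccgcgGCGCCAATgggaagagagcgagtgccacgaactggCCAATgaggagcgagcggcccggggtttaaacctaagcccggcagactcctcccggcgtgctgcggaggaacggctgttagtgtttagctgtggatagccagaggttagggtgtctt
Uhrf1: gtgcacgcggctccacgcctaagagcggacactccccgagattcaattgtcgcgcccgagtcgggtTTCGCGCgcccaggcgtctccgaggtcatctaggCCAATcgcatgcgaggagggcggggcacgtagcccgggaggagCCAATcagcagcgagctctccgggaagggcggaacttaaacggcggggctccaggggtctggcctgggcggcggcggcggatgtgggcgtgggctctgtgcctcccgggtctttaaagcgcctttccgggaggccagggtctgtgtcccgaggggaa
Prc1 and Plk1 each held 1 CCAAT box followed by 1 CHR element. Top2a held 6 CCAAT boxes and 2 CHR elements. Ccnb1 held 2 CCAAT boxes, 1 of them overlapping an E2F match, and Uhrf1 held 2 CCAAT boxes and 1 E2F match. The CHR letters were in 17 of 24 promoters of mitosis genes that fell (70.8%) and in 4 of 21 of replication genes that fell (19%), beside 20.2% of all genes. The E2F letters were in 4 of the 24 mitosis promoters (16.7%) and in 7 of the 21 replication promoters (33.3%), beside 7.24% of all. CCAAT was in 66.7% of each group, beside 41.1% of all. Among the other leading falls examined, the windows of Birc5, Nusap1, Tk1 and Tyms held none of the 3 motifs, and that of Anln held 2 CHR elements and no CCAAT box. These counts of letters were given no test.

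Macrophage identity genes fell in 17 of 26 named members (of 33 listed) and rose in 3, with a median of -0.37. Among the macrophage markers chosen to check the cells, Cd14 rose (0.33, adjusted p = 0.014). Both probes of lysozyme, Lyz, rose as well (0.48 and 0.94). Against WT with RANKL 14 of the 26 were higher and 7 lower, with a median of 0.80. Slco2b1, an organic anion transporter of resident macrophages, had 9928, 9074 and 9376 in KO with RANKL, 198, 203 and 225 in WT with RANKL, and 34819, 28444, 25988 and 28579 in WT with M-CSF. It fell 3.10-fold against M-CSF (-1.63 ± 0.10, adjusted p = 1.28e-10), and was at least 45.3-fold higher than in WT with RANKL, where it was not above background. Vsig4, a complement receptor, had 879, 1047 and 915 in KO with RANKL, 198, 167 and 205 in WT with RANKL, and 3871, 3106, 3118 and 3171 in WT with M-CSF (-1.81 ± 0.10 against M-CSF). KO arrays again lay between groups that did not overlap.

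Cd163, the haemoglobin scavenger receptor, differed in that KO with RANKL was the lowest group, with 194, 218 and 198 there, 285, 316 and 291 in WT with RANKL, and 757, 687, 743 and 664 in WT with M-CSF. It was not above background in KO with RANKL and was at least 3.51-fold lower than in M-CSF. Fcrls, a receptor-like protein of macrophages and microglia, followed Rpl29 and Hspa8 among the largest falls, with 370, 294 and 346 in KO with RANKL, 202, 207 and 168 in WT with RANKL, and 2409, 2426, 2119 and 2447 in WT with M-CSF (-2.81 ± 0.10, 7.00-fold, adjusted p = 6.95e-14). The oxysterol-forming enzyme Ch25h (-1.41) and the mannose receptor Mrc1 (-0.79) fell and were higher than in WT with RANKL by 3.24 and 1.80 on the log2 scale. The brightest probe of Adgre1, the macrophage marker F4/80, changed by -0.34 (adjusted p = 0.0192), which was 0.153 without KO replicate 20 and 0.0608 without M-CSF replicate 6. Its other probes changed by -0.92 (adjusted p = 2.93e-06) and -0.21 (adjusted p = 0.294). The summed intensity of the 26 genes ran from 372485 to 378728 in KO with RANKL, 286694 to 298132 in WT with RANKL, and 418090 to 442881 in WT with M-CSF. In RNA from whole cultures, fewer cells of a type and less RNA per cell cannot be told apart.

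Further genes among the 15 largest falls were on no macrophage list. Myo1f, a myosin of blood cells, had 1575, 1798 and 1933 in KO with RANKL, 5573, 5442 and 5647 in WT with RANKL, and 8733, 8694, 10314 and 9285 in WT with M-CSF. It fell 5.24-fold (-2.39 ± 0.09, adjusted p = 1.88e-13), and KO with RANKL was also below WT with RANKL (-1.66). Plau, urokinase, a protease that activates plasminogen, had 9241, 8856 and 9756 in KO with RANKL, 6596, 7097 and 5949 in WT with RANKL, and 33299, 33416, 34819 and 33416 in WT with M-CSF (-1.86 ± 0.09, 3.64-fold). The RANKL groups were both low, KO less so. Lbp, which binds bacterial lipopolysaccharide, had 251, 283 and 238 in KO with RANKL, 325, 302 and 342 in WT with RANKL, and 1054, 1324, 1165 and 1192 in WT with M-CSF (-2.20, 4.60-fold). The cell adhesion molecule Nrcam (-2.16), the fatty acid hydroxylase Cyp4f18 (-1.99) and the Ras activator Rasgrp3 (-1.98) fell as well. Rgs1, which shortens chemokine receptor signals, fell at 2 probes (-1.90 and -1.36), and its brightest probe did not pass (-0.08, adjusted p = 0.733).

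Acute-phase and secreted defence genes rose over M-CSF in 13 of 18 named members (of 22 listed) and fell in 2, Lbp and Saa3, with a median of 1.07. The call of Saa3 was lost without any one of the 3 KO arrays, or without M-CSF replicate 2 or 3, with adjusted p up to 0.0975. The same 18 were lower than in WT with RANKL in 14 and higher in 4, with a median of -1.58. Over all named genes 29% were lower and 40.6% higher in that comparison, and 15.3% rose over M-CSF and 15.9% fell. C3, the central complement protein, had 6258, 7693 and 6647 in KO with RANKL, 29174, 30462 and 29412 in WT with RANKL, and 692, 637, 604 and 623 in WT with M-CSF. It rose 10.7-fold (3.42 ± 0.09, adjusted p = 7.82e-16) and stayed below WT with RANKL (-2.12 ± 0.10). Lcn2, lipocalin 2, which binds bacterial siderophores, had 2124, 2376 and 2048 in KO with RANKL, 8926, 7924 and 7778 in WT with RANKL, and 378, 370, 440 and 396 in WT with M-CSF, a rise of 2.46 ± 0.09. Both were intermediate, with no overlap.

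Saa3, a serum amyloid protein, did not share this pattern, with 326, 335 and 317 in KO with RANKL, 66876, 66657 and 69017 in WT with RANKL, and 376, 485, 445 and 350 in WT with M-CSF. It was slightly lower than in M-CSF (-0.33, adjusted p = 0.0285) and differed by -7.70 from WT with RANKL, whose arrays were near the top of the scale. Chil1, a chitinase-like protein, had 647, 706 and 616 in KO with RANKL, 67997, 66162 and 65204 in WT with RANKL, and 310, 300, 282 and 340 in WT with M-CSF, a rise of 1.09 over M-CSF. Ass1, which makes argininosuccinate for arginine synthesis and is on no list, had 2838, 3605 and 3163 in KO with RANKL, 24937, 21779 and 19383 in WT with RANKL, and 448, 510, 508 and 520 in WT with M-CSF, a rise of 6.43-fold. H2-M2, a class Ib histocompatibility gene, had 42347, 44450 and 41651 in KO with RANKL, 67292, 70546 and 67997 in WT with RANKL, and 7905, 6904, 7415 and 5888 in WT with M-CSF (2.61). In these 3 genes KO with RANKL again lay between the WT groups.

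Targets and feedback inhibitors of NF-kappaB rose in 11 of 21 (of 29 listed) and fell in 2, with a median of 0.37, and 1 fell without KO replicate 21 or M-CSF replicate 5. Traf1, an adaptor of TNF family receptors, had 2064, 1740 and 1941 in KO with RANKL, 5994, 5857 and 5460 in WT with RANKL, and 369, 346, 346 and 509 in WT with M-CSF (2.30 ± 0.12, 4.94-fold, adjusted p = 9.57e-12). KO arrays lay between the WT groups. The inhibitor Nfkbie rose by 1.05 at its brighter probe and changed by 0.22 at the other (adjusted p = 0.258), and the surface protein Cd83 fell by 0.79 on the log2 scale. Against WT with RANKL, 15 of the 21 were lower and 1 higher, where 29% of named genes were lower and 40.6% higher. Cytokines and chemokines went both ways, with 11 of 35 (of 43 listed) higher (31.4%) and 10 lower (28.6%). Over all named genes 15.3% rose over M-CSF and 15.9% fell. The growth factor Hbegf (1.34), the neutrophil attractant Cxcl1 (1.29), the scavenger chemokine Cxcl16 (0.98) and the angiogenic factor Vegfa (0.96) rose. The monocyte attractants Ccl2 (-1.61) and Ccl7 (-1.47) fell. Il1b, interleukin-1 beta, had 373, 439 and 327 in KO with RANKL, 38086, 42577 and 42846 in WT with RANKL, and 395, 276, 282 and 359 in WT with M-CSF, and its change of 0.22 over M-CSF did not pass (adjusted p = 0.291).

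Of the type I interferon response, 5 of 27 named members (of 38 listed) fell (18.5%) and 2 rose (7.41%), with a median of -0.12. The share that fell is near that over all named genes, of which 15.9% fell and 15.3% rose. Rsad2, the antiviral enzyme viperin, fell (-0.45, adjusted p = 0.00446), and its call held under every alternative run. The next by p were Oas1g, an antiviral synthetase (-0.41, adjusted p = 0.0105), Irf1, an interferon-regulated factor (0.41 at its brightest probe, adjusted p = 0.012, with 3 of 5 probes not passing), and Ifit3, an antiviral protein (-0.40, adjusted p = 0.0298). Oas1g, Irf1 and Ifit3 each lost the call when 1 or another single array was left out, with adjusted p up to 0.0826 for Oas1g, 0.198 for Ifit3 and 0.116 for Irf1. Without the KO array of replicate 20 or 21, 1 member of the list fell, and leaving out the other arrays in turn left 2 to 6 falls, and any array 1 or 2 rises. In WT with RANKL 21 of the 27 were higher than in WT with M-CSF and 3 lower, where 33.7% of named genes were higher and 42% lower.

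In the cAMP and prostaglandin list 8 of 23 (of 35 listed) rose (34.8%) and 4 fell (17.4%), with a median of 0.18. Over all named genes 15.3% rose and 15.9% fell. Ptges, which makes PGE2 from the product of Cox2, had 316, 377 and 333 in KO with RANKL, 16643, 12344 and 13891 in WT with RANKL, and 323, 320, 278 and 285 in WT with M-CSF at its brighter probe. KO with RANKL overlapped with M-CSF (0.18, adjusted p = 0.303), and differed by -5.38 ± 0.11 from WT with RANKL on the log2 scale. Hpgd, which breaks prostaglandins down, had 232, 283 and 244 in KO with RANKL, 178, 193 and 192 in WT with RANKL, and 651, 642, 593 and 525 in WT with M-CSF (-1.25 ± 0.10). Hpgds, a prostaglandin D synthase, had 878, 1107 and 972 in KO with RANKL, 435, 309 and 332 in WT with RANKL, and 1983, 2428, 2726 and 2013 in WT with M-CSF (-1.21 ± 0.13). Both were lower in KO with RANKL than in M-CSF and higher than in WT with RANKL.

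Of the 9 named members (of 14 listed) of the MHC class II presentation list, 5 were higher than in both WT states, namely H2-Aa, H2-Ab1, H2-Eb1, H2-Ea and Cd74, each by its brightest probe. Over the list, 6 rose over M-CSF and 1 fell, with a median of 0.90, and against WT with RANKL 6 were higher and 2 lower, with a median of 2.12. Over all named genes 15.3% rose over M-CSF and 40.6% were higher than in WT with RANKL. The share of named genes higher than in both was not counted. H2-Aa, a class II alpha chain, had 2211, 2586 and 2598 in KO with RANKL, 270, 356 and 395 in WT with RANKL, and 870, 844, 933 and 864 in WT with M-CSF. Cd74, the invariant chain, had 12021, 13806 and 12792 in KO with RANKL, 1995, 1963 and 2132 in WT with RANKL, and 5500, 4815, 5220 and 5124 in WT with M-CSF. In both genes the KO arrays were the highest of all 10, by 1.49 ± 0.11 and 1.32 ± 0.09 over M-CSF (adjusted p = 3.34e-09 and 4.83e-10). H2-Eb1 (1.69) and H2-Ea (1.57), chains of the second class II molecule, and the costimulatory ligand Cd86 (0.57, with 1 of 3 probes not passing) also rose, and H2-DMb1, which loads peptides, fell by 0.44 on the log2 scale. Of 4 probes of H2-Ab1, a class II beta chain, 3 rose (0.90, 0.60 and 0.44). The other had 340, 424 and 420 in KO with RANKL, 1083, 1048 and 1266 in WT with RANKL, and 2433, 1927, 2040 and 1971 in WT with M-CSF (-2.41 ± 0.11), so the direction of H2-Ab1 depended on the probe. The 2 members below WT with RANKL were H2-Oa, at least 3.29-fold lower, and the costimulatory ligand Cd80 (-1.37). The summed intensity of all 9 members ran from 39503 to 47576 in KO with RANKL. It ran from 13796 to 15521 in WT with RANKL and from 20199 to 22107 in WT with M-CSF. This sum includes Cd80 and Cd86, and the brightest probe of Cd86 alone had group means of 5277, 6135 and 3578 in that order. It is therefore not a sum of class II genes alone.

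Markers of other cells moved with the comparison in 2 lists. Osteoblast and stromal markers rose in 16 of 19 named members (of 34 listed), and the adhesion molecule Vcam1 fell (-0.81), with a median of 0.86. Their summed intensity ran from 22642 to 24637 in KO with RANKL, 14059 to 14884 in WT with RANKL, and 14086 to 15397 in WT with M-CSF. A large part of the M-CSF sum came from Vcam1, at 7592 to 9022 on those arrays, so the sum understates the rise of the other members. Of the 19, 18 were above background in KO with RANKL, 12 in WT with RANKL and 13 in WT with M-CSF. Acta2, smooth muscle actin, had 7300, 6455 and 6380 in KO with RANKL, 2411, 2765 and 2611 in WT with RANKL, and 1783, 1438, 1541 and 1754 in WT with M-CSF (2.05 ± 0.10). Col1a1, the main collagen chain of bone, had 846, 689 and 843 in KO with RANKL, 318, 310 and 299 in WT with RANKL, and 248, 215, 284 and 232 in WT with M-CSF (1.70 ± 0.10). KO with RANKL was separate from and above both WT groups in each. The matrix proteins Bgn (1.79) and Sparc (1.76) and the collagen crosslinking enzymes Lox (1.74) and Loxl1, at least 3.09-fold higher, rose too. Ccn2, connective tissue growth factor, one of the 15 largest rises, had 6407, 6115 and 6283 in KO with RANKL, 1926, 2026 and 1991 in WT with RANKL, and 1320, 947, 1009 and 1067 in WT with M-CSF (2.54 ± 0.10, 5.82-fold). Col5a1, another collagen chain, rose by 1.87 over M-CSF and was nearly equal to WT with RANKL (0.04, adjusted p = 0.805). The part of stromal cells in the osteoclast, protease inhibitor and matrix results was not tested.

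Markers of neutrophils and their precursors rose in 10 of 18 named members (of 25 listed) and fell in 0, with a median of 0.61. Their summed intensity ran from 58449 to 74224 in KO with RANKL, 114477 to 117821 in WT with RANKL, and 21757 to 22810 in WT with M-CSF, most of it from S100a8 and S100a9. Ltf, lactoferrin, an iron-binding protein of neutrophil granules, had 4085, 4570 and 3770 in KO with RANKL, 214, 230 and 194 in WT with RANKL, and 724, 660, 689 and 806 in WT with M-CSF. It rose 5.75-fold over M-CSF (2.52 ± 0.10) and was at least 19.2-fold higher than in WT with RANKL. Ngp, another granule protein, had 2013, 2164 and 2168 in KO with RANKL, 262, 265 and 229 in WT with RANKL, and 503, 527, 457 and 491 in WT with M-CSF (2.10 ± 0.09). In both, KO with RANKL was the highest group and WT with RANKL the lowest.

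S100a8, a subunit of calprotectin, was ordered otherwise, with 23701, 33577 and 23339 in KO with RANKL, 62012, 62861 and 64808 in WT with RANKL, and 6252, 6301, 6258 and 5610 in WT with M-CSF (2.12 ± 0.11). Its partner S100a9 rose by 2.35, and the antimicrobial peptide Camp and the chitinase-like Chil3 by 2.13 and 1.76. The primary granule genes Mpo (-0.17), Elane (0.03) and Prtn3 (0.03) and the receptor Csf3r (-0.12) did not pass, and Mpo was lower without KO replicate 19 (adjusted p = 0.0308). The part of granulocytes in the acute-phase result, whose list shares genes with this one, was not tested. Cd300ld, a receptor of myeloid cells on no list, had 4358, 5041 and 4851 in KO with RANKL, 367, 381 and 397 in WT with RANKL, and 657, 645, 615 and 761 in WT with M-CSF (2.83 ± 0.09, 7.11-fold). Of the remaining lists of other cells, the dendritic cell list had 6 named members, of which the actin bundler Fscn1 was at least 1.59-fold higher and the integrin Itgax fell (-0.51). Of 4 named T and NK genes, perforin, Prf1, fell (-1.03), and the cytokine receptor Il7r had probes of opposite direction. Its brighter probe rose (0.35, adjusted p = 0.0298, arrays overlapping) and the other fell (-0.45, adjusted p = 0.00354, arrays not overlapping), and the call of the brighter was lost without any one of 5 arrays, with adjusted p up to 0.156. The mast cell enzyme Hdc was at least 1.47-fold higher, the transferrin receptor Tfrc was the 1 of 3 erythroid and megakaryocyte genes that fell (-0.60), and none of the named B cell (1) and endothelial (2) genes passed.

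**Figure D4:**
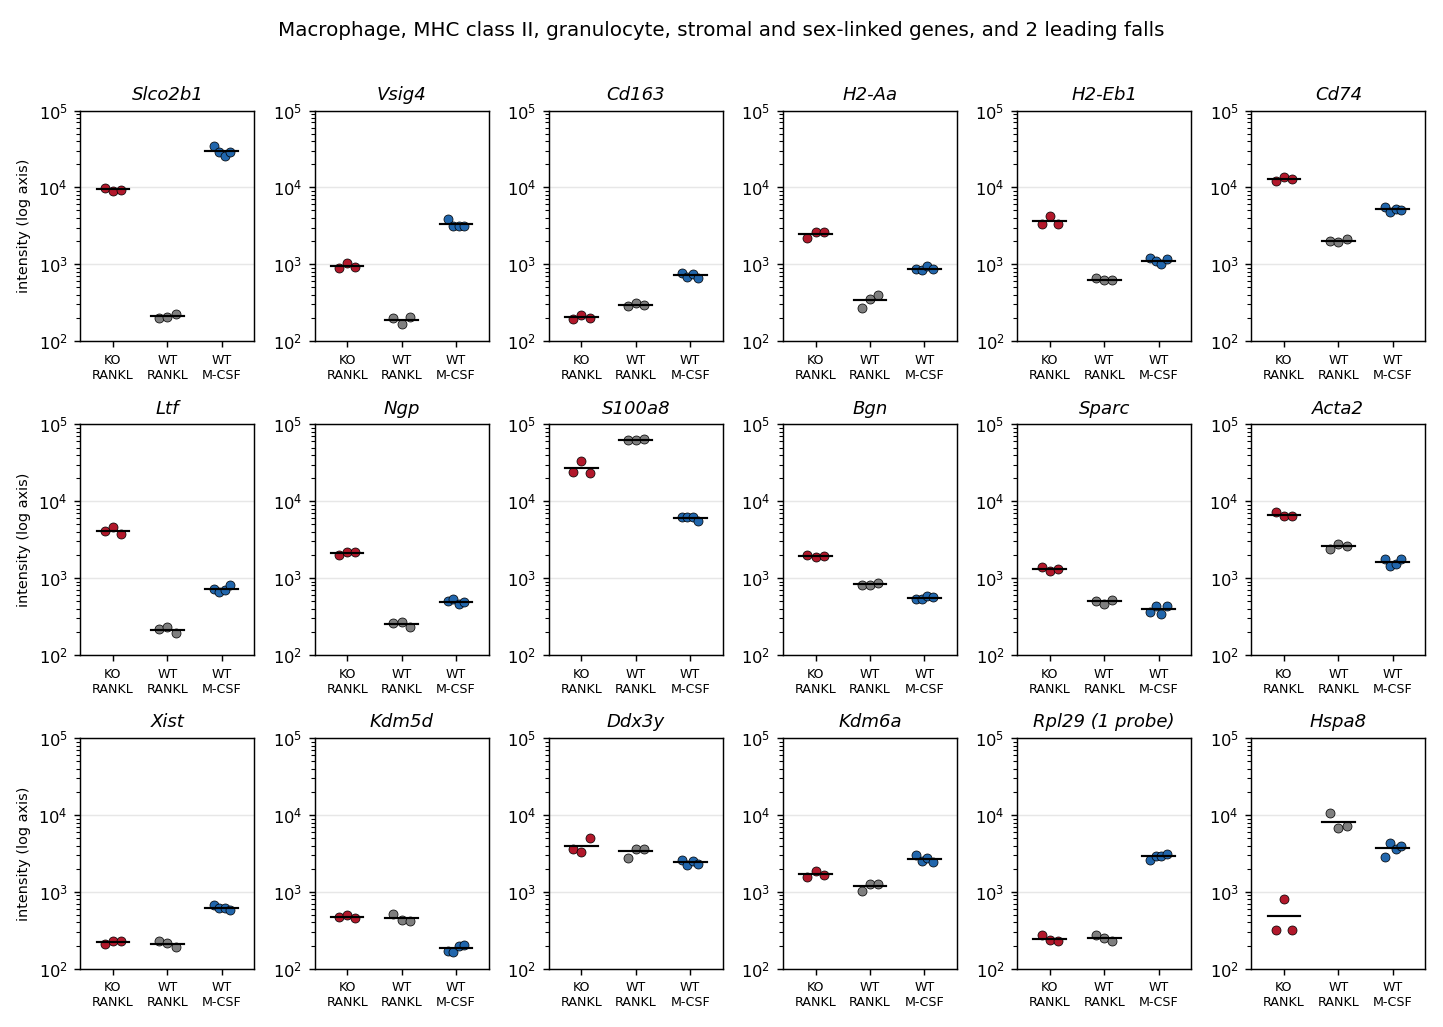
Intensity on a log axis is plotted for 16 genes of macrophages, MHC class II, granulocytes, stroma and the sex chromosomes, and for 2 of the largest falls, in KO with RANKL (3 arrays), WT with RANKL (3 arrays) and WT with M-CSF (4 arrays). Each point is an array and each bar a group mean. The KO arrays are the highest in H2-Aa, Cd74, Ltf, Ngp, Bgn, Sparc and Acta2, and Xist stands apart in WT with M-CSF.

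Other leading genes need their array values to be read. Scin, scinderin, which severs actin filaments, had 4887, 3047 and 4002 in KO with RANKL, 6614, 7759 and 6911 in WT with RANKL, and 224, 208, 228 and 216 in WT with M-CSF, at least 17.8-fold higher than M-CSF, where it was not above background. Mst1r, a receptor tyrosine kinase, had 1056, 804 and 1221 in KO with RANKL, 810, 809 and 756 in WT with RANKL, and 195, 189, 148 and 180 in WT with M-CSF, at least 5.13-fold higher. In both genes every KO array was far above M-CSF. One probe of the ribosomal protein gene Rpl29 had 273, 238 and 229 in KO with RANKL, 278, 255 and 228 in WT with RANKL, and 2581, 2969, 2925 and 3123 in WT with M-CSF. It was not above background with RANKL in KO cells and at least 11.8-fold lower than in M-CSF, while the other probe of Rpl29 changed by -0.65. Hspa8, a constitutive chaperone, had 317, 800 and 321 in KO with RANKL, 10585, 6777 and 7264 in WT with RANKL, and 2854, 4370, 3654 and 3973 in WT with M-CSF (-3.08 ± 0.23, 8.46-fold).

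Among the KO arrays, replicate 19 stood apart in Hspa8 and was the lowest in Scin and Mst1r. It was the lowest of the 3 in 66 of 129 probes higher by 1 or more, where replicates 20 and 21 were lowest in 25 and 38. In the 134 lower by 1 or more it was the highest in 73, and replicates 20 and 21 in 36 and 25. Probes of an array are not independent, and the same count over all probes was not made. Gna12, a G protein subunit chosen after its values were seen, had 336, 855 and 281 in KO with RANKL, 633, 458 and 486 in WT with RANKL, and 1212, 1212, 1207 and 1386 in WT with M-CSF, with the highest KO value that of replicate 19. Ctsk, Mmp14 and Acp5 were lowest on the same array. The cause was not tested.

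**Figure D5:**
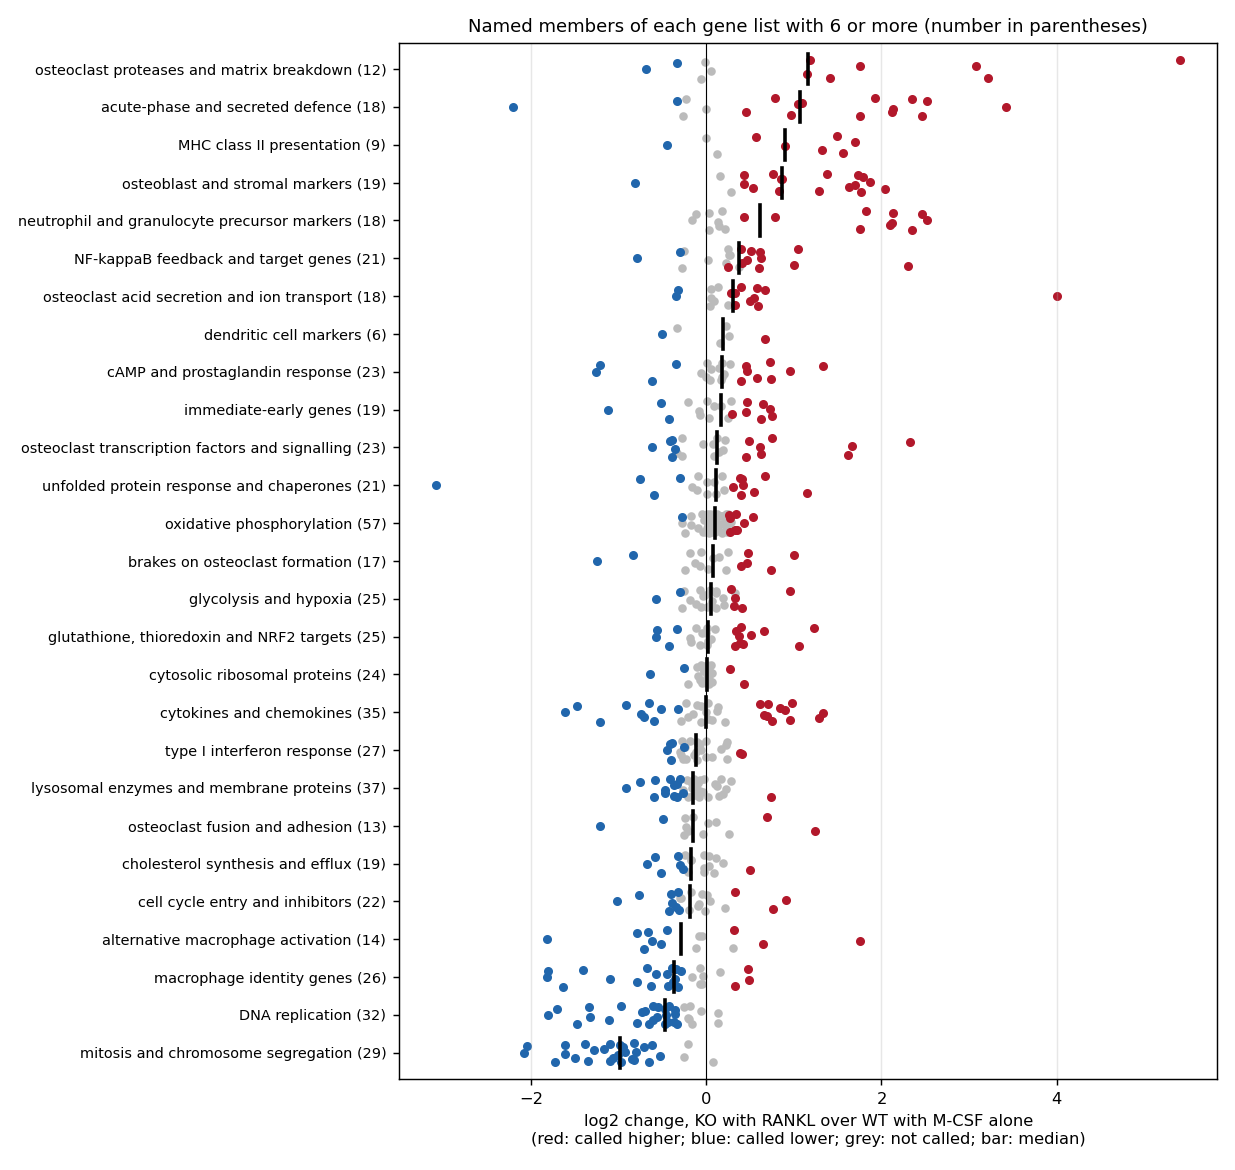
The log2 change in KO with RANKL over WT with M-CSF (x axis) is plotted for every named member of the 27 gene lists with 6 or more members, red where called higher, blue where called lower and grey where not called, with the median as a bar. The lists run from osteoclast proteases, with a median of 1.17, to mitosis, with a median of -0.99.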

How the data were processed

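The authors deposited 1 linear intensity per probe and array of Illumina bead arrays, hybridised with biotin-labelled cRNA. The arrays of an experiment have nearly equal distributions, so the values were taken as quantile normalized by the authors within the experiment. The submitters' processing notes name GenomeStudio and give no version. A detection p-value per group comes from the authors' deposited comparison tables, which also name 7244 of 25697 probes, namely those listed there as changed. Of 5838 symbols, 3969 were current in RefSeq, 1703 were updated and 166 kept as given.

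Log2 intensities of the 10 day 1 arrays went into 1 linear model per probe (limma 3.58.1 in R 4.3.3, functions lmFit and eBayes), with a mean per group, no covariates and two-sided tests. A probe was kept when it exceeded the 40th percentile of at least 3 arrays. Calls needed an adjusted p under 0.05. A fold is 2 to the power of the log2 change. Where a group's detection p was 0.05 or higher, a probe was not above background and its fold is a bound ("at least"), taken against the array's lowest signal above background or the probe's own value, whichever was higher. Lists use a gene's brightest probe. The fit was tested on simulated data.

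Members, lists and tests were chosen with earlier results of these data known. The rule for named genes took the 15 largest rises and falls whose arrays did not overlap and 4 leading members per list, and all named members of the osteoclast, cell cycle and other-cell lists. Other genes were chosen after their values were seen. Some genes that the rule takes are not reported here. Precision is limited by the number of arrays. Alternatives were the 7 arrays alone, cyclic loess, background subtraction, 2 other filters, trended robust variance, array weights and leaving out each array.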

Additional observations from a re-analysis of the deposited data

Results flagged for a closer look

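In the WT M-CSF group, the only one with 4 arrays, 16 of 202 genes tested had 1 array whose gap to its neighbour on the log2 scale, as a share of the group's range, passed Dixon's 95% limit for 4 arrays. Chance gives about 1 flag in 20 groups. Replicate 6 stood apart in 7 genes. It was low in Ass1, at 448 against 508 to 520 on the other 3, and in Oscar, at 217 against 233 to 235. It was high in Adgre1, at 35507 against 30119 to 30576, in Vsig4, at 3871 against 3106 to 3171, and in the peroxiredoxin Prdx4, at 24877 against 20554 to 21002. It was also high in Plekhm1, at 10934 against 10030 to 10102, and in H2-Ea, at 2096 against 1849 to 1884. Replicate 5 was high in the platelet chemokine Ppbp, at 226 against 178 to 184, in Traf1, at 509 against 346 to 369, in Oas1g, at 1989 against 1720 to 1751, and in Gna12, at 1386 against 1207 to 1212. It was low in S100a8, at 5610 against 6252 to 6301. Replicate 2 was low in Fcrls, at 2119 against 2409 to 2447, and high in Plau, at 34819 against 33299 to 33416, and in Vcam1, at 9022 against 7592 to 7693. Replicate 3 was high in Plk4, at 340 against 332 to 333. The groups of 3 arrays were not tested in this way.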

How the results depend on the processing

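With each array's lowest value subtracted and 16 added before log2, 218 probes were higher and 228 lower by 1 or more, against 129 and 134 as reported. This setting removes a constant from every value, which enlarges log2 differences of dim probes. Across this and the other alternatives that kept all arrays compared, 1036 to 1348 probes were called higher and 1218 to 1540 lower. Leaving out 1 array at a time gave 921 to 1241 higher and 1122 to 1458 lower, and 125 to 131 higher and 133 to 141 lower by 1 or more. The 30 leading genes kept direction and call in 510 of 510 values over all alternatives. Among 172 other named genes 2809 of 2914 values were unchanged in call, 100 lost it, 5 gained it and 0 turned direction. No paired analysis was possible because the groups share 0 replicate numbers. Lists are open to the rule that only listed probes have names. Intensities near the top of the scale and near background limit folds.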

Other observations

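Lists for metabolism and stress, not described above, held fewer large changes. Over all named genes 15.3% rose over M-CSF and 15.9% fell, the shares to set beside each count in this section. Lysosomal genes fell in 13 of 37 named members and rose in 1, with a median of -0.15. The thioesterase Ppt1 (-0.91) and cathepsin H, Ctsh (-0.75), fell. With the lowest value of each array subtracted, 8 of the 37 fell. Cholesterol genes fell in 6 of 19 and rose in 1, with the demethylase Cyp51 at -0.67, and 3 fell without the KO array of replicate 19. Against these, glutathione, thioredoxin and NRF2 genes rose in 10 of 25 and fell in 4. Slc7a11, the cystine importer, had 3409, 3641 and 2938 in KO with RANKL, 12221, 16211 and 13230 in WT with RANKL, and 1522, 1435, 1464 and 1231 in WT with M-CSF. KO with RANKL lay between the WT groups, 2.35-fold above M-CSF (log2 change 1.24, limma adjusted p = 4.21e-08). The glutathione transferase Gsta3 rose by 1.06 and did not differ by test from WT with RANKL (-0.17, adjusted p = 0.163). The factor Nfe2l2 itself fell (-0.57).

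Genes of the unfolded protein response and chaperones rose in 8 of 21 and fell in 4. Chac1, which degrades glutathione under amino acid stress, rose by 1.15, the pseudokinase Trib3 by 0.67 and Herpud1, an endoplasmic reticulum protein, by 0.55. The chaperones Hspa8 (-3.08) and Calr (-0.75) fell, and Hspa1a, not above background in KO with RANKL, was at least 1.40-fold lower. Oxidative phosphorylation genes rose in 8 of 57 (14%), near the 15.3% over all named genes, and fell in 1, with a median of 0.10. In WT cells RANKL raised 51 of the 57 over M-CSF, where 33.7% of named genes rose. Without KO replicate 20 or 21, 4 of the 57 rose. Glycolysis and hypoxia genes rose in 5 of 25 (20%) and fell in 2 (8%), and 20 of the 25 rose in WT cells with RANKL. Leaving out KO replicate 21 or M-CSF replicate 2 left 2 of the 5 rises. Cytosolic ribosomal proteins rose in 2 of 24 (8.33%) and fell in 2 (8.33%), below the shares over all named genes. Leaving out most single arrays left 1 each.

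Immediate-early genes rose in 7 of 19 and fell in 3, with Fosb at 0.73, Klf4 at 0.65 and Klf2 at -1.11. Alternative activation genes fell in 7 of 14 and rose in 3. Chil3 rose by 1.76, with all 3 of its probes higher (1.02 to 1.99). Arg1, arginase 1, fell by 0.62 on the log2 scale and the lipid-sensing factor Pparg by 0.67. Arg1 was also 35.3-fold lower than in WT with RANKL.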
